A study of Mus musculus with 8 samples.

Results

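The isoforms of the SR and hnRNP splicing factor genes were examined in whole mouse liver. They were chosen by gene symbol as all isoform rows whose gene is named Srsf followed by a number or has a name that begins with Hnrnp. This gave 204 isoforms of 30 genes, out of 96792 isoforms of 34465 genes. Of these, 74 isoforms belonged to 11 SR genes and 130 to 19 hnRNP genes. A gene had between 1 and 23 listed isoforms, and 3 genes (Hnrnpa0, Hnrnpa1l2-ps and Hnrnpul2) had 1. Hnrpdl and Hnrpll, related hnRNP genes under older symbols, fell outside the name rule and are counted with other splicing regulators.

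SR proteins bind RNA and carry a domain rich in arginine and serine, and they mostly help the spliceosome to recognise nearby exons. HnRNP proteins coat nascent transcripts, and many of them repress exons or compete with SR proteins for sites, so that the balance between both families helps to set which isoform of a target is made. Many of these genes limit their own level by making isoforms with premature stop codons that are broken down by nonsense-mediated decay. In regenerating liver the hepatocytes leave rest and divide, and Srsf5 was first described in the rat as a growth-response gene of that setting.

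RNA of whole liver had been sequenced in 8 libraries, 2 from each of 4 groups of mice of strain 129S4/SvJae/FVB aged 3 months. All of the mice were b-PDGFR fl/fl, so that both of their alleles of Pdgfrb, which encodes a receptor for platelet-derived growth factor, carried sites at which Cre can delete them. The groups were GFAP-Cre pos with partial hepatectomy (removal of part of the liver) 72 h before sampling, GFAP-Cre neg with the same operation, GFAP-Cre pos with a sham operation, and GFAP-Cre neg with a sham operation. They are called Cre-positive and Cre-negative hepatectomy and Cre-positive and Cre-negative sham below. Cre is driven by the GFAP promoter, which per the labels deletes the receptor in hepatic stellate cells, a minor cell type of the organ, while the other cells of the liver were sequenced with them. The labels speak of duplicates and do not say that each library came from its own animal, so p-values measure only the spread between these samples, which may be technical.

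Values are a normalized signal, summed over a gene's isoforms for gene sums, and an isoform's share is its percent of that sum. In 369 genes with 1 isoform the signal also shared an odd common factor over the libraries. It mostly matched the number of exons plus 1, apart from factors of 2 and 5, and is called the exon factor below. A gene's or isoform's value is therefore compared here between libraries and not with another gene's. Pdgfrb, the targeted gene, had a signal of 63.1 and 99.9 in Cre-positive and 122.7 and 70.5 in Cre-negative hepatectomy libraries, against 59.4 and 46.0 in Cre-positive and 49.8 and 63.3 in Cre-negative sham libraries, so that the genotypes overlapped in whole liver. The summed signal of 13 hepatocyte markers lay between 4.803e+05 and 6.143e+05 in all 8 libraries, but single markers carried that range. Alb, the gene of serum albumin, was listed at 2.2723e+05 in Cre-negative hepatectomy replicate 1 and at 0 in the other 7 libraries, and Serpina1a was listed at 0 in Cre-positive hepatectomy replicate 1 and Cre-positive sham replicate 2. Without these 2 genes the sum was 6.143e+05 and 4.237e+05 in Cre-positive and 3.012e+05 and 4.351e+05 in Cre-negative hepatectomy libraries, against 4.76e+05 to 5.311e+05 in sham libraries. All 11 markers of dividing cells rose after hepatectomy, and their sum was 1496 and 4702 in Cre-positive and 1449 and 3463 in Cre-negative hepatectomy libraries, against 68.5 to 114.7 in sham libraries. All 5 bile duct markers had positive fold changes without passing. Their sum was highest, at 1751, in Cre-positive hepatectomy replicate 1, where Spp1 alone was at 1713.6. The other 4 summed to 37.3 and 62.8 in Cre-positive and 165 and 114.3 in Cre-negative hepatectomy libraries, against 28.0 to 86.7 in sham libraries. Averaged over genotypes, all 8 sinusoidal endothelial markers had negative fold changes (median log2 fold change -0.615), and 2 of them, Kdr and Oit3, passed. Within Cre-positive livers 3 of the 8 were positive, and 0 passed within either genotype. None of 13 hepatocyte, 11 leukocyte and Kupffer cell and 8 stellate markers passed. In whole tissue, fewer cells of a type and less RNA per cell cannot be told apart.

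The 4 hepatectomy libraries stood apart from each other. In Cre-positive hepatectomy replicate 1, 21 of the 29 genes tested lay above the highest sham library (72.4%, against 29.2% of all genes) and 3 below the lowest (10.3%, against 34.5%). In Cre-positive hepatectomy replicate 2, 6 lay above (20.7%, against 46.6%) and 19 below (65.5%, against 33.5%). In Cre-negative hepatectomy replicate 1 the counts were 17 above (58.6%, against 50.8%) and 8 below (27.6%, against 29.5%), and in Cre-negative hepatectomy replicate 2 they were 12 above (41.4%, against 44.7%) and 9 below (31%, against 26.1%). The shares of the splicing factors were thus near those of all genes in the Cre-negative libraries and away from them in the Cre-positive ones, in opposite directions, a difference that was not tested. The median log2 difference of these genes from the sham mean was 0.20 in Cre-positive hepatectomy replicate 1, -0.64 in Cre-positive hepatectomy replicate 2, 0.22 in Cre-negative hepatectomy replicate 1 and 0.03 in Cre-negative hepatectomy replicate 2. Over all genes it was -0.05, 0.17, 0.28 and 0.15 in the same libraries. These differences varied with GC content in 3 of the 4 libraries. For the 928 genes with transcripts under 40% GC the median log2 difference from the sham mean was -0.06 and -1.49 in Cre-positive and -0.03 and -0.04 in Cre-negative hepatectomy libraries. For the 3497 genes at 55% GC or above it was -0.11 and 0.66 in Cre-positive and 0.61 and 0.40 in Cre-negative hepatectomy libraries. The splicing factor genes spanned 37.1% (Hnrnph1) to 55.4% (Hnrnpa0) GC, and counts from a fit corrected for GC content stand beside the main ones below. Cre-negative hepatectomy replicate 1 held the highest value of all 8 libraries for Srsf2, Srsf3, Srsf4, Srsf6, Srsf7, Srsf9 and Srsf11. Srsf11, whose product interacts with the core splicing machinery, had a signal of 613 and 219 in Cre-positive and 2361 and 673 in Cre-negative hepatectomy libraries, against 578 to 756 in sham libraries. Summed over the 11 SR genes, the signal was 4235 and 3143 in Cre-positive and 7669.7 and 4645 in Cre-negative hepatectomy libraries, against 4401 to 4687 in sham libraries. Summed over the 19 hnRNP genes it was 18491 and 9282 in Cre-positive and 14265 and 13298 in Cre-negative hepatectomy libraries, against 13631 to 15138 in sham libraries. The highest SR sum and the highest hnRNP sum were thus in different hepatectomy libraries, of different genotype. Such sums may carry the exon factor, and they weigh most the genes of highest signal. In these 2 libraries Srsf11 alone gave 2361 of the SR sum and Hnrnpa2b1 alone 5637 of the hnRNP sum, so they do not describe each family as a whole. Between replicates, the median ratio of the 29 genes was 1.69 in Cre-positive and 1.2 in Cre-negative hepatectomy livers, against 1.08 in Cre-positive and 1.1 in Cre-negative sham livers. Over all genes the ratios were 1.61 in Cre-positive and 1.37 in Cre-negative hepatectomy livers, against 1.15 in Cre-positive and 1.16 in Cre-negative sham livers, so the splicing factors' spread was close to or below that of all genes except in the Cre-positive hepatectomy pair, where it was slightly above.

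**Figure D1:**
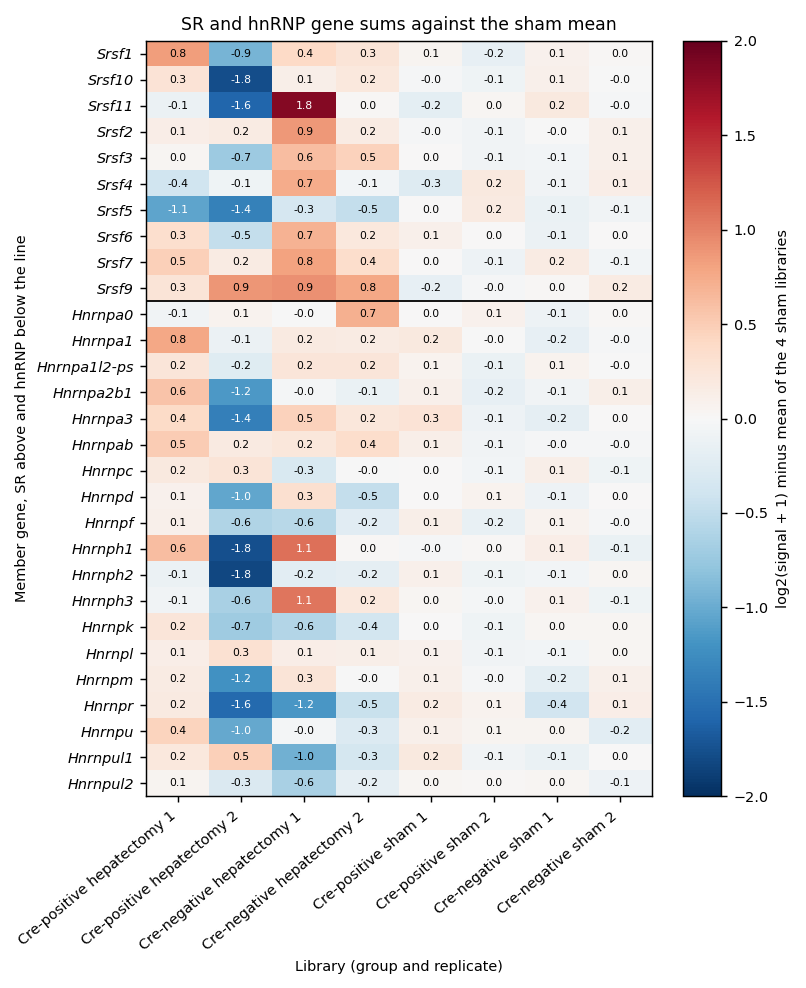
Heat map of log2(signal + 1) of each of the 29 tested genes (rows, SR above the line and hnRNP below it) in each library (columns, hepatectomy left of sham) minus the mean of the 4 sham libraries, with the difference written in each cell. Sham columns are near 0, Cre-positive hepatectomy replicate 1 is above the highest sham library for 21 genes (72.4%, against 29.2% of all genes), and Cre-positive hepatectomy replicate 2 is below the lowest for 19 (65.5%, against 33.5%).

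The comparison of hepatectomy with sham, averaged over both genotypes, asked how the splicing factors stand in a regrowing liver. Srsf5 fell after hepatectomy, and it alone of the 29 genes tested passed the threshold of an adjusted p of 0.05 in limma, with 0 genes higher and 1 lower. Of all 16443 genes tested, 4.49% passed in either direction and 0.845% were lower. At an unadjusted p under 0.05 there were 3 of the 29 (10.3%), against 23.8% of all genes, namely Srsf5, Srsf9 and Srsf7, all of them SR genes. The median log2 fold change was 0.04 over the 29 genes and 0.12 over all genes. It was positive for 8 of 10 SR genes tested (median 0.12) and for 7 of 19 hnRNP genes (median -0.16), against 57.7% of all genes. Under median-of-ratios scaling the median of all genes was 0.02 and these counts were 5 of 10 and 6 of 19. Under quantile normalization the median of all genes was -0.03 and the counts 8 of 10 and 7 of 19, and after correction for GC content they were -0.01, 7 of 10 and 8 of 19. With that correction 0 of the 29 genes passed and 6 had an unadjusted p under 0.05 (Hnrnpa1, Srsf1, Srsf3, Srsf6, Srsf7 and Srsf9), against 27.2% of all genes. Srsf12, which encodes a little-studied SR protein, was listed at 0 in 2 sham libraries and at no more than 1.43 in any library, and it was not tested.

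Srsf5 encodes an SR protein that shuttles between nucleus and cytoplasm. Its signal was 628 and 511 in Cre-positive and 1044 and 947 in Cre-negative hepatectomy libraries, against 1320.0 and 1491 in Cre-positive and 1202 and 1254 in Cre-negative sham libraries. All 4 hepatectomy libraries lay below all 4 sham libraries, and the Cre-positive hepatectomy libraries were the lowest. The mean was 782 ± 253 in hepatectomy and 1317 ± 126 in sham libraries (SD, n = 4 each, both genotypes), a log2 fold change of -0.81 (SE 0.15, 95% interval -1.17 to -0.44, adjusted p = 0.0353). Within genotypes it was -1.31 in Cre-positive livers (SE 0.22, adjusted p = 0.0501) and -0.30 in Cre-negative livers (SE 0.22, adjusted p = 0.446), and the interaction of -1.0 between operation and genotype did not pass (SE 0.31, adjusted p = 0.562). Over the alternatives tried, the averaged change lay between -0.91 and -0.47 and its adjusted p between 0.00513 and 0.217. The call was lost with quantile normalization (adjusted p = 0.0613), without the intensity trend (0.0688), without any 1 sham library (0.155 to 0.181) and after correction for GC content (log2 fold change -0.47, adjusted p = 0.217), Srsf5 having 40.2% GC. It was also lost without Cre-negative hepatectomy replicate 1 (adjusted p = 0.0871) or replicate 2 (0.0688). With both Cre-negative hepatectomy replicate 1 and Cre-positive hepatectomy replicate 2 left out, a choice made after their values were seen, the change was -0.77 (SE 0.09, adjusted p = 0.0295). The summed signal of 11 leukocyte and Kupffer cell markers, of which Cd3e was at 0 in 1 or more libraries, was 4005 and 4476 in Cre-positive and 2273 and 1658 in Cre-negative hepatectomy libraries, against 1874 to 2823 in sham libraries. It was thus highest in the libraries in which Srsf5 was lowest. It was lowest, however, in Cre-negative hepatectomy replicate 2, where Srsf5 also lay below all sham libraries. The markers in the sum did not move alike. In Cre-positive livers 8 of the 11 had a positive fold change after hepatectomy. In Cre-positive hepatectomy replicate 2, Ptprc (18.9, against 90.9 to 160.2 in sham) and Vsig4 (118.9, against 133.6 to 219.5) lay below all sham libraries. The part of this sum in the result was not tested.

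Srsf9 had the largest positive fold change of the 29 genes. It encodes an SR protein with a short arginine-serine domain, and its signal was 162 and 249 in Cre-positive and 256 and 231 in Cre-negative hepatectomy libraries, against 120.2 and 133 in Cre-positive and 138 and 152 in Cre-negative sham libraries. All 4 hepatectomy libraries lay above all 4 sham libraries, with the smallest gap for Cre-positive hepatectomy replicate 1. The log2 fold change was 0.70 (SE 0.20, 95% interval 0.24 to 1.17), and the adjusted p of 0.0984 missed the threshold. It was 0.67 in Cre-positive and 0.74 in Cre-negative livers. Without Cre-positive hepatectomy replicate 1 it was 0.86 and passed (adjusted p = 0.00672), the range over the alternatives being 0.00672 to 0.329. The promoters of Srsf5, lower after hepatectomy, and Srsf9, with the largest positive fold change, are shown so that the genes at both ends of the SR family can be set side by side. They cover 250 bases before and 50 after the RefSeq start, on the plus strand of GRCm38.p6, at chr12:80945249-80945548 for Srsf5 and chr5:115326927-115327226 for Srsf9. Capitals mark matches on either strand to the GC box GGGCGG and to TGACG, the core of the cyclic AMP response element.
Srsf5 promoter: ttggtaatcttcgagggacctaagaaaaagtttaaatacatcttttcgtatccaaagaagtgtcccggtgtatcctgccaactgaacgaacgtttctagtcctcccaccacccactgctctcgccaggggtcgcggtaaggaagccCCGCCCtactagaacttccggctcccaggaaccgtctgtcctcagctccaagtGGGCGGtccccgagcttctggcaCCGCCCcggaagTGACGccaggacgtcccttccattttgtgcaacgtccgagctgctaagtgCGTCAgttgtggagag
Srsf9 promoter: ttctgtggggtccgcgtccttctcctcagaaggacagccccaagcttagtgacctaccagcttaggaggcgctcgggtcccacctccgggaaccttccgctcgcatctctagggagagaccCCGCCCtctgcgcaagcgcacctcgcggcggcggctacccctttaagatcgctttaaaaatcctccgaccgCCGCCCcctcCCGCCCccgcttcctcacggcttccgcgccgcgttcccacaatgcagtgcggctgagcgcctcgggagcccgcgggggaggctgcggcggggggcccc
Both windows held 3 GC boxes, and no match overlapped another. That motif was in 35.7% of all 32851 RefSeq promoters of this length and in 23 of the 28 splicing factor genes matched by symbol. TGACG matched 2 times in the Srsf5 window and 0 times in that of Srsf9, and it was in 20.8% of all promoters and 18 of the 28 genes. The letters CCAAT, searched on both strands as well, had no match in either window, and they were in 37.4% of all promoters and 17 of the 28 genes. The E-box CACGTG had none either (7.15% of all promoters, 5 of the 28 genes). Nor had the E2F site TTTGGCGC or its variant form TTTCGCGC, of which one or the other was in 0.813% of all promoters and 0 of the 28 genes.

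Srsf7 encodes an SR protein with a zinc knuckle that also serves mRNA export. Its signal was 408 and 329 in Cre-positive and 515 and 375 in Cre-negative hepatectomy libraries, against 294 and 273 in Cre-positive and 329.5 and 282 in Cre-negative sham libraries. Cre-positive hepatectomy replicate 2 lay below the highest sham library by a small margin, and the other hepatectomy libraries lay above all sham libraries. The log2 fold change of 0.45 (SE 0.18, 95% interval 0.02 to 0.88) did not pass (adjusted p = 0.195). Srsf2, the nuclear speckle protein also known as SC35, had a signal of 934 and 948 in Cre-positive and 1542 and 950.1 in Cre-negative hepatectomy libraries, against 830.2 and 808 in Cre-positive and 848 and 910.0 in Cre-negative sham libraries. Here the groups did not overlap, but 1 library, Cre-negative hepatectomy replicate 1, held most of the difference, and the log2 fold change was 0.33 (SE 0.19, adjusted p = 0.317).

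**Figure D2:**
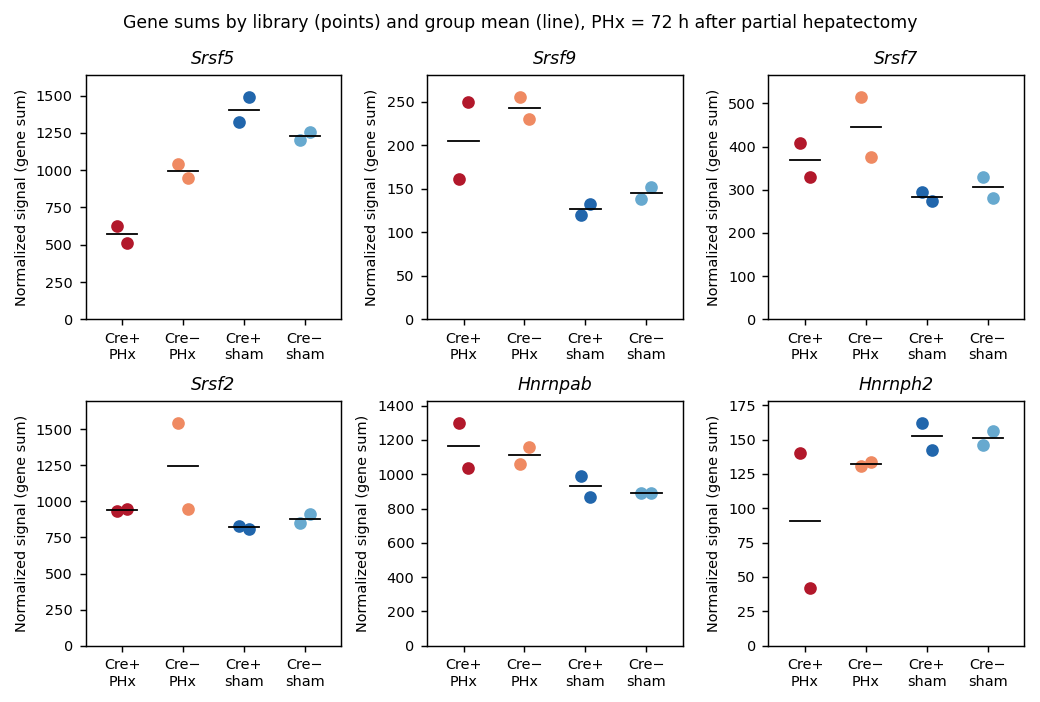
Normalized signal (gene sum, axis from 0) of 6 genes in each library (points) with the mean of each group of 2 (line), PHx standing for 72 h after partial hepatectomy. Srsf5 is at 511 to 1044 in hepatectomy libraries, below all sham libraries, and Srsf9 at 162 to 256, above all sham libraries.

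The remaining SR genes spread widely among the hepatectomy libraries, and their averaged log2 fold changes lay between -0.29 (Srsf10) and 0.19 (Srsf6), none past the threshold. Srsf1, the founding member of the family, was at 398 and 116 in Cre-positive and 295 and 266 in Cre-negative hepatectomy libraries, against 199 to 236 in sham libraries. Srsf10, a repressor of splicing when dephosphorylated, was at 165 and 38.9 in Cre-positive and 147 and 158 in Cre-negative hepatectomy libraries, against 128 to 146 in sham libraries. In both genes the Cre-positive hepatectomy replicates lay on opposite sides of the sham range. Srsf3, a small SR protein with roles in splicing, 3' end formation and export, was at 212 and 125 in Cre-positive and 316 and 285 in Cre-negative hepatectomy libraries, against 198 to 222 in sham libraries. Srsf4 and Srsf6 had their highest values, 651 and 542, in Cre-negative hepatectomy replicate 1, against at most 444 and 360.2 in sham libraries.

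Among the hnRNP genes 0 of 19 passed in limma, also at an unadjusted p under 0.05. The largest negative fold changes were those of Hnrnpr and Hnrnph2. Hnrnpr, a relative of Syncrip, had a signal of 199 and 59.5 in Cre-positive and 78.6 and 129 in Cre-negative hepatectomy libraries, against 198 and 186 in Cre-positive and 135 and 195 in Cre-negative sham libraries. Cre-positive hepatectomy replicate 1 was level with the highest sham library and the other hepatectomy libraries lay below all of them (log2 fold change -0.75, SE 0.39, adjusted p = 0.284). Hnrnph2, which binds runs of G, was at 139.9 and 42.1 in Cre-positive and 131 and 133 in Cre-negative hepatectomy libraries, against 162 and 143 in Cre-positive and 146 and 156 in Cre-negative sham libraries. The groups did not overlap, by a small margin between the nearest libraries, and the value of Cre-positive hepatectomy replicate 2 was the only one far below sham (log2 fold change -0.58, SE 0.36, adjusted p = 0.343).

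The 6 genes with the highest mean signal, an order that may also carry the exon factor, were Hnrnpa2b1, Hnrnpk, Hnrnpm, Hnrnpu, Srsf5 and Hnrnpab. Hnrnpa2b1, which represses exons like its relative Hnrnpa1, was at 5637 and 1704 in Cre-positive and 3685 and 3437 in Cre-negative hepatectomy libraries, against 4063 and 3385 in Cre-positive and 3613 and 4126 in Cre-negative sham libraries. Hnrnpk, a KH-domain protein that binds runs of C, was at 2811 and 1463 in Cre-positive and 1599 and 1842 in Cre-negative hepatectomy libraries, against 2399 and 2244 in Cre-positive and 2463 and 2453 in Cre-negative sham libraries. For both genes Cre-positive hepatectomy replicate 1 was the highest and Cre-positive hepatectomy replicate 2 the lowest of all 8 libraries. The averaged log2 fold changes were -0.19 (SE 0.36, adjusted p = 0.756) for Hnrnpa2b1 and -0.36 (SE 0.23, adjusted p = 0.357) for Hnrnpk. Hnrnpm, which binds GU-rich sites, was at 1331 and 510.4 in Cre-positive and 1417 and 1181 in Cre-negative hepatectomy libraries, against 1266 and 1168 in Cre-positive and 1034 and 1274 in Cre-negative sham libraries. Hnrnpu, also known as scaffold attachment factor A, was at 1503 and 541 in Cre-positive and 1067 and 909 in Cre-negative hepatectomy libraries, against 1184 and 1149 in Cre-positive and 1138 and 950.4 in Cre-negative sham libraries. Cre-positive hepatectomy replicate 2 was again the lowest library for both, and the fold changes were -0.19 (SE 0.30) for Hnrnpm and -0.22 (SE 0.31) for Hnrnpu. Without that library the log2 fold changes of Hnrnpa2b1, Hnrnpm and Hnrnpu were 0.24, 0.15 and 0.14, so that their direction rests on it.

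Hnrnpab, a protein that binds single-stranded DNA and RNA, was at 1299 and 1034 in Cre-positive and 1061 and 1162 in Cre-negative hepatectomy libraries, against 989 and 869 in Cre-positive and 892 and 892 in Cre-negative sham libraries. All hepatectomy libraries lay above all sham libraries, and the log2 fold change of 0.32 (SE 0.16, 95% interval -0.05 to 0.69) did not pass (adjusted p = 0.257). In all, hepatectomy and sham libraries did not overlap for 6 of the 29 genes (20.7%), against 17.4% of all genes tested, a share near the background. Hnrnpab, Hnrnpl, Srsf2 and Srsf9 were above and Hnrnph2 and Srsf5 below sham. Hnrnpl, which binds CA repeats, was at 849 to 965 in hepatectomy and 744 to 833 in sham libraries (log2 fold change 0.17, SE 0.15). The remaining hnRNP genes had log2 fold changes from -0.32 (Hnrnpf) to 0.25 (Hnrnpa1). Hnrnpa1, a repressor of exons, was at 383 and 205 in Cre-positive and 254 and 249.8 in Cre-negative hepatectomy libraries, against 201 to 255 in sham libraries. Hnrnpc, which binds runs of U, was at 809 and 845 in Cre-positive and 569.9 and 700.4 in Cre-negative hepatectomy libraries, against 667 to 768 in sham libraries. In Hnrnpc both Cre-positive hepatectomy libraries lay above the sham range, whereas in Hnrnpa1 replicate 1 lay above and replicate 2 within it. Hnrnph1, like Hnrnph2 a binder of G runs, was at 1051 and 202 in Cre-positive and 1479 and 702 in Cre-negative hepatectomy libraries, against 628 to 755 in sham libraries, and the SE of its log2 fold change was 0.51, the widest of the 29 genes. Reads that Hnrnpa1 shares with its copy Hnrnpa1l2-ps, or Hnrnph1 with Hnrnph2, may have been split between them, since the handling of such reads and of strand was not given in the sources used here.

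**Figure D3:**
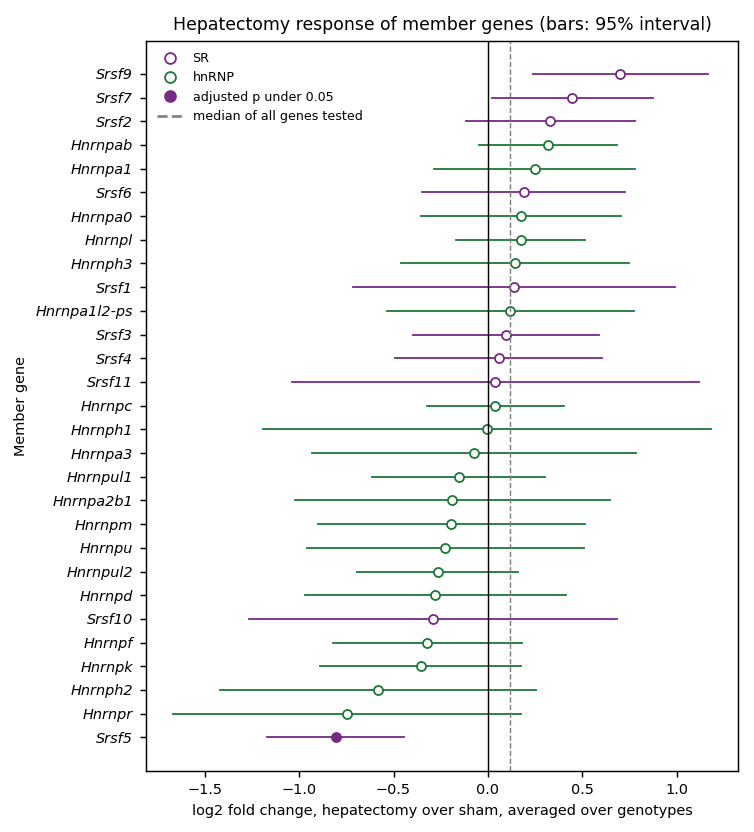
Log2 fold change of hepatectomy over sham averaged over genotypes (points) with 95% intervals (bars) for the 29 tested genes in order of size, SR in purple and hnRNP in green, with the median of all genes tested (0.12) as a dashed line. Srsf5 at -0.81 is the filled point, past the adjusted p of 0.05, and the intervals of Srsf9 and Srsf7 also exclude 0.

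Within Cre-positive livers, 0 of the 29 genes passed in limma, against 0.943% of all genes, and 2 (Srsf5 and Srsf9) had an unadjusted p under 0.05, against 13.5% of all genes. Srsf5 was closest at an adjusted p of 0.0501. Within Cre-negative livers 0 passed in limma, against 1.11%, and 1 (Srsf9) had an unadjusted p under 0.05, against 21.3%. These comparisons rest on 2 libraries a side and share their libraries with the averaged one. Without Cre-positive hepatectomy replicate 1, which leaves replicate 2 alone to stand for its group with the spread of the others, 12 genes passed in Cre-positive livers, against 21.2% of all genes, and 11 on average over genotypes, against 32.7%. After correction for GC content 0 passed in either genotype. An unadjusted p under 0.05 was then reached by 4 genes in Cre-positive livers (Hnrnpa1, Srsf1, Srsf7 and Srsf9), against 15.6% of all genes, and by 5 in Cre-negative livers (Hnrnpk, Hnrnpul1, Srsf3, Srsf6 and Srsf9), against 25.3%. The median log2 fold change of the 29 genes in Cre-positive livers turned in direction with it, from -0.20 as deposited (0.02 over all genes) to 0.06 (-0.01 over all genes). In Cre-negative livers it was 0.21 as deposited (0.21 over all genes) and 0.04 corrected (-0.001 over all genes).

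Cre-positive and Cre-negative livers were compared to ask whether the deletion in stellate cells goes with other levels of splicing factors. In sham livers 0 of 29 genes passed in limma, against 0.00608% of all genes, and 0 had an unadjusted p under 0.05, against 0.888%. After hepatectomy 0 passed in limma, against 0.0182%, and 5 had an unadjusted p under 0.05, against 18.3%. For the interaction of operation and genotype 0 passed in limma, against 0.0122%, and 1 (Srsf5) had an unadjusted p under 0.05, against 8.09%. The 5 of the comparison after hepatectomy were Hnrnpul1, Srsf5, Srsf3, Hnrnph3 and Srsf11. Hnrnpul1, an hnRNP U relative with a part in the DNA damage response, had a signal of 574 and 688 in Cre-positive and 254 and 389 in Cre-negative hepatectomy libraries, against 568 and 472 in Cre-positive and 449.5 and 500.0 in Cre-negative sham libraries. After hepatectomy both Cre-positive libraries lay above and both Cre-negative libraries below all sham libraries. The log2 difference between genotypes was 1.00 (SE 0.28, 95% interval 0.35 to 1.65, adjusted p = 0.159), in a contrast where the median of all genes was -0.23. For Srsf5 it was -0.81 (SE 0.22, adjusted p = 0.156) and for Srsf3 -0.88 (SE 0.30, adjusted p = 0.213). Hnrnph3 at -0.99 and Srsf11 at -1.78 followed, both with an adjusted p of 0.230. Both Cre-positive hepatectomy libraries lay outside the range of the other 6 libraries for Hnrnpc, Hnrnpl and Hnrnpul1 (above) and Srsf5 (below), 4 of 29 genes (13.8%), against 14.2% of all genes. Both Cre-negative hepatectomy libraries did so for Hnrnpa1l2-ps, Hnrnph3, Srsf2 and Srsf3 (above) and Hnrnpul1 (below), 5 of 29 (17.2%), against 23.3%. Hnrnph3 and Hnrnpul1, 2 of 29 genes, went beyond the sham libraries of their own genotype in opposite directions, against 6.85% of all genes. These shares were near or below the background. After correction for GC content 0 genes passed between genotypes after hepatectomy, and the 5 with an unadjusted p under 0.05 were Hnrnpa1, Hnrnpc, Hnrnpk, Hnrnpul1 and Srsf11, against 22.5% of all genes. In sham livers there were 0, against 1.06%, and for the interaction 1 (Hnrnpk), against 10.6%. As deposited, the log2 difference between genotypes after hepatectomy was positive for 0 of 10 SR genes, against 37% of all genes. With the correction it was positive for 2 of 10. The median of the 29 genes was -0.35 as deposited and -0.09 corrected, against -0.23 and 0.01 over all genes.

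The hepatectomy libraries also differed in the isoform composition of these genes, most of all between genotypes. The measure was the share of a gene's sum that would have to pass between isoforms to turn 1 library's composition into another's. It used all isoforms of a gene. It is given as a median over the 26 splicing factor genes with 2 or more isoforms, a mean sum of at least 10 and signal in every library. Between sham libraries it was 5.13 to 10.6 percentage points, against 6.4 to 8.36 points over all genes so examined. Between a Cre-positive and a Cre-negative hepatectomy library it was 19.6 to 32.2 points, against 15.5 to 27.8 points over all 9060 genes so examined. Cre-positive hepatectomy replicate 1 lay 8.29 to 11.5 points from the sham libraries (7.41 to 8.64 over all genes), near the sham libraries' own distances. Cre-positive hepatectomy replicate 2 lay 19 to 22.4 points away, against 11.2 to 12.8 points over all genes. Both Cre-negative hepatectomy libraries lay 16.4 to 26.2 points away, against 13.6 to 24.1 points over all genes. The Cre-positive hepatectomy replicates were 19.4 points apart for the splicing factors and 10 points over all genes. The Cre-negative hepatectomy replicates were 14.2 and 13.8 points apart.

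**Figure D4:**
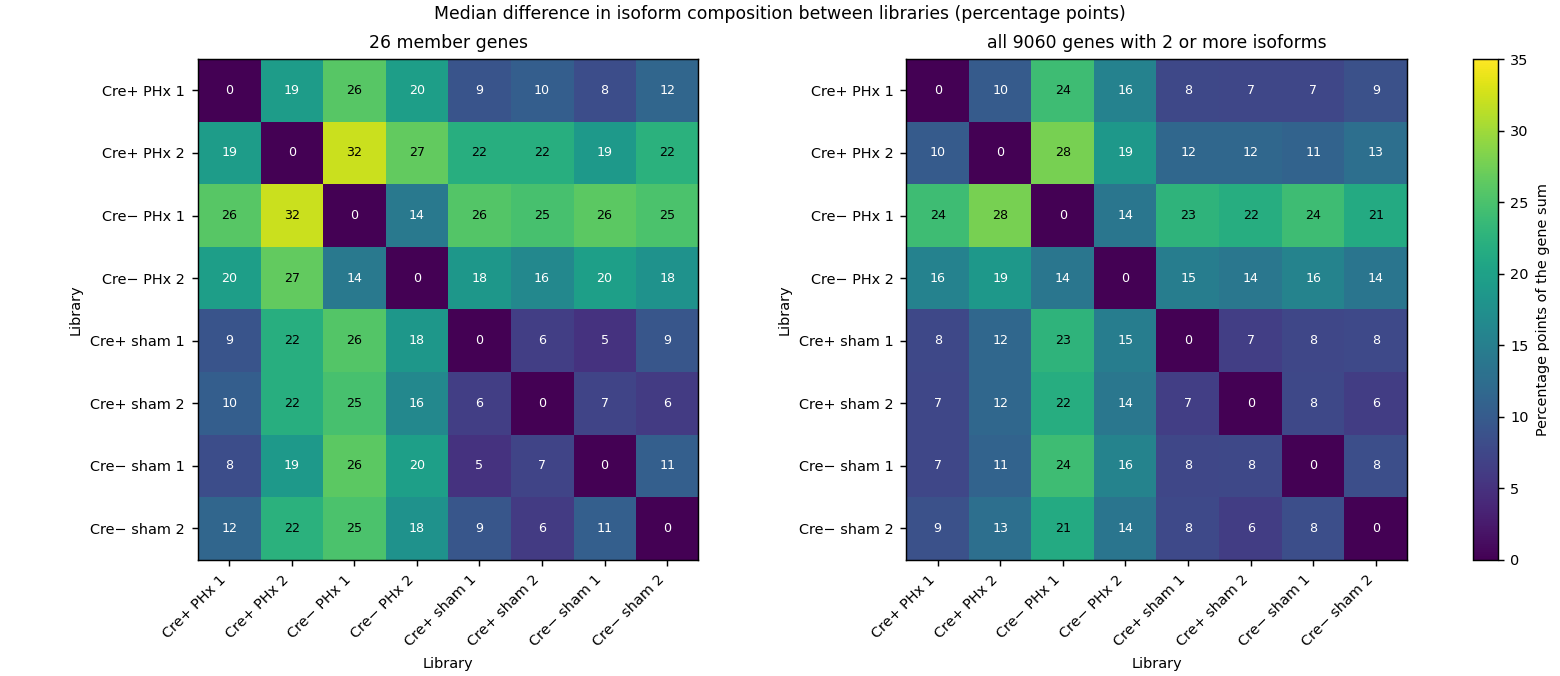
Matrices of the median difference in isoform composition between each 2 libraries, in percentage points of the gene sum, over the splicing factor genes (left) and over all genes with 2 or more isoforms (right), with hepatectomy (PHx) libraries above and left of sham libraries. Sham libraries are 5 to 11 points apart over the splicing factor genes, and a Cre-positive and a Cre-negative hepatectomy library 20 to 32 points.

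The same isoform led in all 8 libraries in 10 of the 26 multi-isoform genes compared, among them Hnrnpu-001, Hnrnpm-002, Hnrnpab-003 and Srsf2-201. In the others the leader differed between libraries. Hnrnpk was led by Hnrnpk-002 in 6 libraries, with shares of 29.9% and 16.1% in Cre-positive and 0.107% and 32.8% in Cre-negative hepatectomy libraries, against 24.8% to 34.2% in sham libraries. In Cre-negative hepatectomy replicate 1, where its share was 0.107%, Hnrnpk-004 held 45.8%, against 12.2% in the other library of that group and at most 5.82% elsewhere. Srsf6, an SR protein of the exon-enhancing kind, was led by Srsf6-002 in both Cre-positive hepatectomy libraries (51.0% and 71.0%) and by Srsf6-001 in all others, where Srsf6-002 had 29.2% to 40.9%. Srsf7 was led by Srsf7-201 in both Cre-negative hepatectomy libraries (42.8% and 44.5%) and by Srsf7-203 in the other 6, Srsf9 by Srsf9-001 in 7 libraries, Hnrnpa2b1 by Hnrnpa2b1-202 in 4 and Hnrnph2 by Hnrnph2-001 in 4. The leading isoforms of the other genes described by library were steadier in some cases than in others. Hnrnpab-003 held 73.4% and 71.0% in Cre-positive and 43.5% and 58.5% in Cre-negative hepatectomy libraries, against 66.96% to 71.7% in sham libraries. Hnrnpm-002 held 73.1% and 61.3% in Cre-positive and 47.4% and 58.9% in Cre-negative hepatectomy libraries, against 70.8% to 74.6% in sham libraries, and in Cre-negative hepatectomy libraries Hnrnpm-008 held 34.8% and 15.3%, against at most 2.98% in the other 6 libraries. Srsf9-001 held 48.7% and 51.0% in Cre-positive and 42.0% and 50.6% in Cre-negative hepatectomy libraries, against 44.6% to 53.2% in sham libraries, and Srsf7-203 50.7% and 57.3% in Cre-positive and 25.4% and 20.6% in Cre-negative hepatectomy libraries, against 35.7% to 53.7% in sham libraries. In Srsf7 the low values were again those of the Cre-negative hepatectomy libraries. Measured as distance from the mean sham composition, Hnrnpul1 was at most 1.53 points away in any library, while Cre-negative hepatectomy replicate 1 reached 71.8 points for Hnrnpr, 67.9 for Hnrnpk and 63.8 for Hnrnph2. The isoform names come from the deposited table, and the exons and coding status behind them are not used here.

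Tested over all isoforms of at least 5% of their gene, the averaged effect of hepatectomy on shares passed for 0 of 96 splicing factor isoforms in limma, against 0.107% of all isoforms. An unadjusted p under 0.05 was reached by 12 (12.5%), against 16.3% of all isoforms. The largest share differences were those of Hnrnpr-003, Hnrnph2-003, Srsf2-201, Srsf2-001, Hnrnph3-003, Srsf7-201, Hnrnpm-002 and Srsf5-202. Hnrnpr-003 held 22.0% and 37.2% in Cre-positive and 97.1% and 48.1% in Cre-negative hepatectomy libraries, against 27.0% and 24.9% in Cre-positive and 32.1% and 16.9% in Cre-negative sham libraries. The averaged difference of 25.9 points (SE 11.8, adjusted p = 0.348) rested mainly on Cre-negative hepatectomy replicate 1. Hnrnph2-003 was likewise highest in that library, at 0.104% and 0.192% in Cre-positive and 66.2% and 14.7% in Cre-negative hepatectomy libraries, against 1.94% and 2.33% in Cre-positive and 0.789% and 4.59% in Cre-negative sham libraries, a difference of 17.9 points (SE 10.9, adjusted p = 0.444).

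Of the 8 isoforms, only Srsf2-201 and Srsf2-001 had shares that did not overlap between hepatectomy and sham. Srsf2-201 held 68.9% and 60.4% in Cre-positive and 52.3% and 58.4% in Cre-negative hepatectomy libraries, against 74.4% and 74.7% in Cre-positive and 73.4% and 76.6% in Cre-negative sham libraries. Srsf2-001 held 22.2% and 26.2% in Cre-positive and 44.2% and 38.2% in Cre-negative hepatectomy libraries, against 18.7% and 21.1% in Cre-positive and 17.3% and 19.4% in Cre-negative sham libraries. All 4 hepatectomy libraries lay below all sham libraries for Srsf2-201 and above them for Srsf2-001, and the Cre-negative hepatectomy libraries were the more distant. The averaged differences were -14.8 points (SE 3.47, adjusted p = 0.183) and 13.6 points (SE 3.24, adjusted p = 0.187), and neither passed. Shares of hepatectomy and sham libraries did not overlap for 4 of 96 isoforms (4.17%), against 5.22% of all isoforms, the other two being Hnrnpa2b1-202 and Hnrnpd-012, both higher after hepatectomy. Of the rest, Hnrnph3-003 and Srsf7-201 differed by 13.0 and 12.9 points and Hnrnpm-002 and Srsf5-202 by -12.8 and -12.5 points, with adjusted p of 0.262 to 0.419. Srsf5-202, the leading isoform of Srsf5, held 27.0% and 52.5% in Cre-positive and 26.7% and 37.3% in Cre-negative hepatectomy libraries, against 47.2% and 50.3% in Cre-positive and 48.5% and 47.5% in Cre-negative sham libraries. Its share was near the sham level in Cre-positive hepatectomy replicate 2, although the gene sum of Srsf5 was lowest there.

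The comparison of genotypes after hepatectomy held most of the share calls. Of 96 splicing factor isoforms, 6 had a higher and 4 a lower share in Cre-positive than in Cre-negative hepatectomy livers. Of all isoforms, 11.6% passed, 5.57% higher and 6.07% lower, so that 10 of 96 is near the background. At an unadjusted p under 0.05 there were 46 (47.9%), against 34.8% of all isoforms. In sham livers 0 of 96 passed in limma, against 0% of all isoforms, and 1 had an unadjusted p under 0.05, against 3.02%. For the interaction of operation and genotype 0 passed in limma, against 0.138%, and 21 had an unadjusted p under 0.05, against 22.2%. Within Cre-positive livers the hepatectomy effect passed for 0 in limma, against 0.00395%, and 8 had an unadjusted p under 0.05, against 6.67%. Within Cre-negative livers it passed for 1, lower, against 4.09% of all isoforms in either direction and 1.73% lower, and 23 had an unadjusted p under 0.05, against 28.8%.

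Srsf1-006 had the lowest p of these. Its share of the Srsf1 sum was 24.9% and 37.3% in Cre-positive and 0.0178% and 0.0833% in Cre-negative hepatectomy libraries, against 22.3% and 15.9% in Cre-positive and 20.1% and 18.8% in Cre-negative sham libraries. It was nearly absent from both Cre-negative hepatectomy libraries and above the sham range in both Cre-positive ones, a difference of 31.0 points (SE 5.00, 95% interval 18.7 to 43.4, adjusted p = 0.0278). Srsf1-002 filled part of the gap, with 49.6% and 24.6% in Cre-negative hepatectomy libraries, against 8.02% to 13.8% in sham libraries. Hnrnpu-005 was likewise nearly absent from both Cre-negative hepatectomy libraries, at 0.108% and 0.0526%. In Cre-positive hepatectomy libraries it held 25.5%, within the sham range, and 44.5%, above it. Its sham shares were 23.2% and 19.6% in Cre-positive and 26.5% and 10.7% in Cre-negative libraries. Hnrnpu-001, the leading isoform of the gene, was its counterpart at 68.3% and 54.4% in Cre-positive and 94.4% and 96.0% in Cre-negative hepatectomy libraries, against 70.8% and 73.1% in Cre-positive and 68.1% and 80.7% in Cre-negative sham libraries. The differences between genotypes were 34.9 points (SE 7.95, adjusted p = 0.0470) for Hnrnpu-005 and -33.9 points (SE 6.16, adjusted p = 0.0331) for Hnrnpu-001.

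Hnrnph2-004 held 42.5% and 69.7% in Cre-positive and 0.00694% and 0.215% in Cre-negative hepatectomy libraries, against 34.3% and 29.7% in Cre-positive and 35.1% and 19.3% in Cre-negative sham libraries, and its difference of 56.0 points (SE 10.3, adjusted p = 0.0338) was the largest called. Hnrnpl-008 held 22.7% and 18.9% in Cre-positive and 0.000471% and 5.38% in Cre-negative hepatectomy libraries, against 19.7% and 16.1% in Cre-positive and 23.1% and 20.1% in Cre-negative sham libraries. Both isoforms were at or near 0 in Cre-negative hepatectomy replicate 1, and the share of Hnrnpl-008 in replicate 2 was still below the sham range. Hnrnpl-008 was higher by 18.1 points in Cre-positive hepatectomy livers (SE 3.53, adjusted p = 0.0368) and was also the 1 share called within Cre-negative livers, where it fell by 18.9 points after hepatectomy (SE 3.53, adjusted p = 0.0491).

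The other 5 shares called were those of Hnrnpk-012, Hnrnpf-205, Hnrnpa2b1-203, Hnrnpd-010 and Hnrnph1-003. Hnrnpk-012 held 8.80% and 10.9% in Cre-positive and 0.730% and 1.55% in Cre-negative hepatectomy libraries, against 6.01% to 8.16% in sham libraries (difference between genotypes 8.70 points, adjusted p = 0.0464). Hnrnpf-205, of a protein that binds G runs, held 13.3% and 14.1% in Cre-positive and 0.257% and 4.31% in Cre-negative hepatectomy libraries, against 12.8% to 16.7% in sham libraries (11.4 points, adjusted p = 0.0454). In both genes the Cre-negative hepatectomy shares lay far below the sham range, and the Cre-positive ones lay above it for Hnrnpk-012 and within it for Hnrnpf-205. Hnrnpa2b1-203 held 19.7% and 12.9% in Cre-positive and 43.1% and 35.6% in Cre-negative hepatectomy libraries, against 24.9% to 27.9% in sham libraries (-23.0 points, adjusted p = 0.0454). Hnrnpd-010, of a protein that binds AU-rich elements, held 12.5% and 9.73% in Cre-positive and 25.5% and 26.1% in Cre-negative hepatectomy libraries, against 17.9% to 21.2% in sham libraries (-14.7 points, adjusted p = 0.0449). Hnrnph1-003 held 5.67% and 2.81% in Cre-positive and 14.1% and 13.8% in Cre-negative hepatectomy libraries, against 7.91% to 8.47% in sham libraries (-9.72 points, adjusted p = 0.0427). For Hnrnpa2b1-203, Hnrnpd-010 and Hnrnph1-003 the hepatectomy libraries of Cre-positive livers lay below and those of Cre-negative livers above the sham range. All 10 calls were lost in a fit of the 4 hepatectomy libraries alone and without any 1 sham library. They were also lost without Cre-negative hepatectomy replicate 1, without Cre-positive hepatectomy replicate 2, and without both. Without Cre-negative hepatectomy replicate 2, 23 isoforms passed, against 24.7% of all isoforms, 7 of them among the 10.

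**Figure D5:**
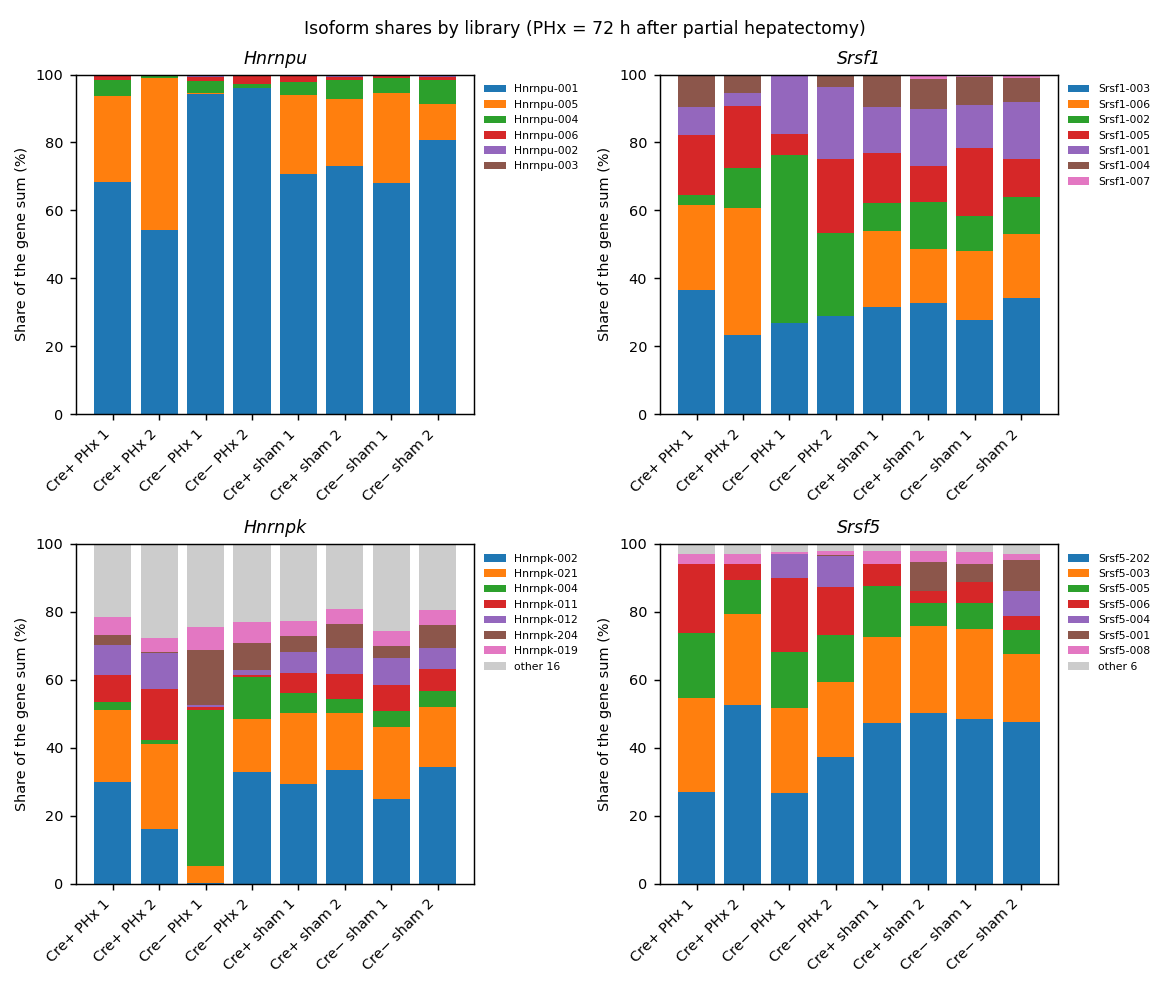
Stacked isoform shares, in percent of the gene sum, of Hnrnpu, Srsf1, Hnrnpk and Srsf5 in each library, with hepatectomy (PHx) left of sham and all but the 7 isoforms of highest mean share in grey. Hnrnpu-005 and Srsf1-006 nearly vanish in both Cre-negative hepatectomy libraries (at most 0.11%) and reach 44.5% and 37.3% in Cre-positive hepatectomy replicate 2.

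Counted over all 96 isoforms, both Cre-negative hepatectomy libraries lay outside the range of the other 6 libraries for 48 shares (50%), against 41.5% of all isoforms. Both Cre-positive hepatectomy libraries did so for 31 shares (32.3%), against 14.2% of all isoforms. For the sham groups the counts were 5 in Cre-positive (5.21%, against 5.33%) and 2 in Cre-negative livers (2.08%, against 5.66%). In 24 isoforms (25%, against 16.4% of all) the hepatectomy groups lay beyond the sham libraries of their own genotype on opposite sides. The filter of a mean share of at least 5% was taken over all libraries, for these and all other isoforms. An isoform high in 1 group alone could thus enter through that group and then be counted for it. Hnrnpm-008 and Hnrnph2-003, among the 48, were under 5% in the other 6 libraries. Isoforms of 1 gene share its sum, so these counts are not of independent items. Whether the splicing factors differ from other genes in them was not tested.

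The level of each isoform, rather than its share, was also compared. Of 185 splicing factor isoforms tested, 4 were lower and 0 higher after hepatectomy averaged over genotypes, against 1.72% of all isoforms called in either direction and 0.906% lower. An unadjusted p under 0.05 was reached by 30 (16.2%), against 19.1%. The 4 were Hnrnpu-005 (log2 fold change -3.17, SE 0.41, adjusted p = 0.0224), Hnrnph2-004 (-2.68, SE 0.38, adjusted p = 0.0289), Srsf1-006 (-2.33, SE 0.38, adjusted p = 0.0410) and Hnrnpk-011 (-1.56, SE 0.22, adjusted p = 0.0282). All 4 also passed for the interaction of operation and genotype, so the averaged value does not describe both genotypes alike. Within Cre-positive livers 0 isoforms passed in limma, against 0.0106% of all isoforms (12 unadjusted, against 8.26%). Within Cre-negative livers 7 were lower and 0 higher, against 4.5% in either direction and 2.93% lower (36 unadjusted, against 23.7%), namely the same 4 with Hnrnpk-012, Hnrnpd-009 and Srsf5-010. Between genotypes after hepatectomy 6 were higher and 5 lower in Cre-positive livers, against 5.17% in either direction, 3.48% higher and 1.69% lower (59 unadjusted, against 25.5%). In sham livers 0 passed in limma, against 0% (3 unadjusted, against 2%). For the interaction the 4 were the only calls among the 185, all with a positive difference of responses (Cre-positive minus Cre-negative), against 0.868% in either direction and 0.701% higher (25 unadjusted, against 14.7%). Hnrnpu-005 had a signal of 383 and 241 in Cre-positive and 1.16 and 0.478 in Cre-negative hepatectomy libraries, against 275 and 226 in Cre-positive and 302 and 102 in Cre-negative sham libraries. Hnrnpk-011 had 223 and 219 in Cre-positive and 14.2 and 11.9 in Cre-negative hepatectomy libraries, against 141 and 164 in Cre-positive and 185 and 164 in Cre-negative sham libraries. Both isoforms were far below the sham range after hepatectomy in Cre-negative livers, and in Cre-positive livers they lay within or above it. None of the 4 passed without any 1 sham library, and none without Cre-positive hepatectomy replicate 2, where Srsf5-202 passed in their place.

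Other genes of the splicing pathway, from lists drawn up with earlier results of these data known, were counted in the same averaged comparison. Of all genes, 4.49% passed there in limma and 23.8% had an unadjusted p under 0.05. Of 19 SR-related proteins and SR protein kinases, 0 passed in limma (0 unadjusted) and the median log2 fold change was -0.05. Son, a speckle scaffold, was at 543 and 245 in Cre-positive and 1502 and 619 in Cre-negative hepatectomy libraries, against 601 to 641 in sham libraries. Clk1, a kinase that phosphorylates SR proteins, was at 489.5 and 74.3 in Cre-positive and 1217 and 522 in Cre-negative hepatectomy libraries, against 384 to 532 in sham libraries. Both had the pattern of Srsf11, high in Cre-negative hepatectomy replicate 1 and low in Cre-positive hepatectomy replicate 2. Of 38 other regulators of alternative splicing 0 passed (3 unadjusted, median -0.08). Rbm39, an SR-like coactivator, was at 1453 and 259.8 in Cre-positive and 3482 and 1399 in Cre-negative hepatectomy libraries, against 1356 to 1599 in sham libraries. Pcbp2, a poly-C binding protein, was at 892 and 1169.9 in Cre-positive and 1276 and 1391 in Cre-negative hepatectomy libraries, against 1159.6 to 1256 in sham libraries. Of 13 genes of nonsense-mediated decay 0 passed (0 unadjusted, median 0.05). There, Eif4a3 of the exon junction complex was at 497 and 760.4 in Cre-positive and 346 and 536 in Cre-negative hepatectomy libraries, against 483 to 533 in sham libraries. The kinase Smg1 was at 474 and 95.7 in Cre-positive and 850.1 and 445 in Cre-negative hepatectomy libraries, against 471 to 549.7 in sham libraries, again high in Cre-negative hepatectomy replicate 1 and low in Cre-positive hepatectomy replicate 2.

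Genes called were found in 1 of these lists, the core of the spliceosome. Of 53 snRNP core and U1, U2 and tri-snRNP proteins, 3 rose after hepatectomy and 0 fell, against 3.64% of all genes higher, so the calls were near the background. An unadjusted p under 0.05 was reached by 22 of the 53, against 23.8% of all genes. Their median log2 fold change was 0.25, with 37 of 53 positive, against a median of 0.12 and 57.7% positive over all genes. The 3 were Lsm3, Lsm4 and Lsm7, subunits of the Lsm ring that binds the U6 snRNA and, with another subunit, takes part in mRNA decay. Lsm4 was at 211 and 446 in Cre-positive and 510.4 and 431 in Cre-negative hepatectomy libraries, against 156 and 203 in Cre-positive and 136 and 143 in Cre-negative sham libraries (log2 fold change 1.26, SE 0.26, adjusted p = 0.0446). Lsm3 was higher by 1.14 (SE 0.24, adjusted p = 0.0471) and Lsm7 by 0.92 (SE 0.19, adjusted p = 0.0410). For Lsm4 every hepatectomy library lay above every sham library, Cre-positive hepatectomy replicate 1 by the smallest margin. No alternative fit is given for these 3 genes, whose adjusted p lay close to the threshold.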

How the data were processed

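Whole-liver RNA had been sequenced in 8 libraries, 2 in each of 4 groups. The authors deposited, per isoform and per library, a normalized signal, and a gene's value is the sum of its isoforms. TopHat, Cufflinks, the genome mm9 and the annotation NCBIM37 had been used per the submitters' processing notes, while tool versions and the normalization were not given in the sources used here. FPKM-like values had been assumed when the tests were chosen. The signal found instead keeps the same log-scale test, but no counts can be recovered from it, so depth is unknown and no counting intervals are given. Library sums were 8617664 to 11583777. In genes with 1 isoform the values shared an odd common factor in 369 cases. It matched the number of exons in 34, exons plus 1 in 245 and exons plus 2 in 40. Prime factors of the decimal base had been removed from both numbers before they were compared, and genes with no factor left were not counted. Such a factor cancels between libraries, but it weights isoforms within a share.

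Log2(signal + 1) of genes or isoforms with a mean signal of at least 1 was fitted with limma 3.58.1 in R 4.3.3, with 1 mean per group, an intensity trend, two-sided tests and Benjamini-Hochberg adjustment over all genes or isoforms (threshold 0.05). A log2 fold change on this scale understates that of low genes. Shares were fitted likewise, for isoforms with a mean gene sum of at least 10 and a mean share of at least 5%. These means were taken over all libraries, so an isoform high in 1 group alone could pass. Residual degrees of freedom were 4, and prior degrees of freedom 3.25 for genes and 1.77 for shares. Promoters came from RefSeq (GRCm38.p6), and 28 of 30 genes matched by symbol. Python 3.11.15 was used for values and figures. The fits were also run on simulated data with equal spread in all groups. The real hepatectomy pairs were further apart than the sham pairs, so that run does not vouch for the calls.

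The members and lists were chosen with earlier results of these data known. Genes described by library are those called, the 6 highest by mean and the 6 with the largest averaged fold change. Isoforms so described are those called by share, up to 12, the 8 with the largest averaged share difference and the leading isoforms. The rest are given by range, and Srsf1, Srsf2, Srsf3, Srsf10, Srsf11, Hnrnpa1, Hnrnpc, Hnrnph1, Hnrnpul1, Hnrnpm-008 and the isoforms called by level were added after their values were seen. Alternatives were other pseudocounts, filters, scalings, a GC correction (lowess, span 0.3), diffSplice, and each library left out. A replicate number is not stated to mark a shared animal or batch.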

Additional observations from a re-analysis of the deposited data

Results flagged for a closer look

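The level of 4 of 185 splicing factor isoforms responded to hepatectomy differently in the 2 genotypes, by the interaction term in limma. Of all 47375 isoforms tested, 0.868% passed in either direction and 0.701% with a positive difference. Whether the splicing factors differ from other genes in this was not tested. The difference of the log2 responses, Cre-positive minus Cre-negative, was 6.91 for Hnrnpu-005 (SE 0.82, adjusted p = 0.0225), 6.02 for Srsf1-006 (SE 0.76, adjusted p = 0.0275), 4.94 for Hnrnph2-004 (SE 0.76, adjusted p = 0.0462) and 4.17 for Hnrnpk-011 (SE 0.44, adjusted p = 0.0163). In all 4 the Cre-negative hepatectomy libraries held far less than the sham libraries, so the fitted sizes depend on the pseudocount. Over the alternatives they lay between 4.39 and 7.97 for Hnrnpu-005 (adjusted p 0.0164 to 0.132), 3.02 and 8.36 for Srsf1-006 (0.0160 to 0.165), 2.13 and 7.37 for Hnrnph2-004 (0.0235 to 0.212) and 3.51 and 4.31 for Hnrnpk-011 (0.00668 to 0.124). Leaving out any 1 sham library ended all 4 calls.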

How the results depend on the processing

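Of 296 count alternatives, 215 stayed within 1.5 times the reported count, and of 592 alternatives for named values 386 kept direction and side of the threshold, 189 lost a call, 10 gained one and 7 reversed. The cause was not tested. The counts below are given without the share of all genes or isoforms called under the same alternative. They show how the calls depend on the setting, and no excess among the splicing factors can be read from them.

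The 1 gene called on average over genotypes was 0 with quantile normalization, 0 without the intensity trend and 0 after GC correction. With 1 library left out the counts of genes were 0 to 11 averaged, 0 to 12 in Cre-positive and 0 to 1 in Cre-negative livers, 0 to 10 between genotypes after hepatectomy and 0 to 3 for the interaction, and each highest count was reached without Cre-positive hepatectomy replicate 1 (that of Cre-negative livers also without replicate 2). In Cre-positive livers 1 gene passed with a minimum mean of 10, and 1 without both Cre-negative hepatectomy replicate 1 and Cre-positive hepatectomy replicate 2.

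The 0 shares called on average became 2 with diffSplice (Hnrnpu-001 and Hnrnpu-005) and 0 to 9 with 1 library left out. The 1 of Cre-negative livers became 5 as a log2 ratio, 7 at a gene sum of at least 100, 0 at a share of at least 1%, 2 without trend, 9 with diffSplice, 0 in a fit of its own libraries, 0 without both libraries and 0 to 15 with 1 left out. The 10 between genotypes after hepatectomy became 26 at a gene sum of at least 100, 5 at a share of at least 1%, 19 with diffSplice (5 in common), 0 in a fit of their own libraries, 0 without both libraries and 0 to 23 with 1 left out. The 0 of the interaction became 3 as a log2 ratio, 7 with diffSplice and 0 to 9. The 4 isoform levels called on average became 1 with a pseudocount of 10, 2 without a filter and 0 to 16 with 1 library left out. The 4 of the interaction became 1 with a pseudocount of 10, 2 without a filter, 2 without both libraries and 0 to 13. The 0 of Cre-positive livers became 14 without Cre-positive hepatectomy replicate 1 (0 to 14), the 7 of Cre-negative livers 12 without both libraries and 1 to 24, and the 11 between genotypes after hepatectomy 6 without a filter, 7 without both libraries and 4 to 31. For isoform levels other than the average these alternatives were added after seeing the data.

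The averaged fold changes of Hnrnpa2b1, Hnrnpm and Hnrnpu, with 1 library left out, ranged from -0.62 to 0.24, -0.54 to 0.15 and -0.59 to 0.14, and without both libraries they were 0.22, 0.09 and 0.09. Hnrnpu was 0.079 after GC correction.

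No paired analysis was possible because no label ties libraries of different groups to each other. With 2 libraries a group, unknown depth and a signal that carries an exon factor, low isoforms, levels between genes and the structure behind an isoform name could not be assessed.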
